A study of Mus musculus with 6 samples.

Results

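Heat shock and endoplasmic reticulum (ER) stress genes were examined in regulatory T (Treg) cells from mouse tumours. The set comprised 36 genes, chosen by symbol from the cytosolic and mitochondrial chaperones, the ER chaperones and the genes of the unfolded protein response, and they were found on 37 of the 55450 rows of the expression table. For description they were split into 18 heat shock and mitochondrial chaperone genes and 18 ER chaperone and ER stress genes. The cells had been sorted from MC38 tumours, a transplantable colon carcinoma line, grown in C57BL/6 mice. In 3 libraries the Treg cells were Tim-3 sufficient and in 3 they were Tim-3 deficient, the labels placing the deficiency in Treg cells, with Tim-3 being the inhibitory receptor encoded by Havcr2. The labels name no treatment beside the tumour in either group, and the allele, the Cre driver, the age of the mice and any pooling of animals are not given in the sources used here. Nothing in the labels says that the libraries came from separate mice, so a p-value here reflects only how far these libraries scatter, part of which may be technical.

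Chaperones bind unfolded proteins and help them fold or pass them on for degradation. In the cytosol, HSP70 proteins take up client proteins from HSP40 (DnaJ) partners and hand some of them to HSP90, and the transcription factor HSF1 induces many of these genes when unfolded protein accumulates. In the ER, the chaperone BiP and the protein disulfide isomerases fold secreted and membrane proteins, and the sensors IRE1, ATF6 and PERK raise the genes of the unfolded protein response. T cells enlarge both systems when they are activated and make more protein, and heat shock genes also respond to handling of cells during tissue dissociation.

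Levels are printed as log2(TPM + 1). TPM is a length-corrected transcript abundance that adds up to 1000000 in a library. The columns show the group of each library but no replicate number, so the libraries are called sufficient A1, B1 and dated and deficient C1, D and dated, after marks in their names. The dated library of each group carried a calendar date, which is treated as a possible batch, and the other 4 libraries are called undated. Values are given below in that order. Read depth cannot be recovered from TPM. The number of genes at 1 TPM or more ranged from 11470 to 12681.

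The check of the labels gave lower Havcr2 in each deficient library (3.54, 4.27 and 2.55) than in each sufficient library (5.70, 5.64 and 4.49). Deficient D lay close to sufficient dated. The log2 fold change of -1.83 ± 0.48 (SE) did not pass the threshold over all genes (limma adjusted p = 0.211). All 8 Treg and CD4 T cell markers were detected in all 6 libraries, with Foxp3 between 27.2 and 46.1 TPM. Their sum was 9038, 9021 and 6912 TPM in sufficient and 5596, 7342 and 7256 TPM in deficient libraries, lowest in deficient C1. Of the 8, 6 had negative log2 fold changes (median -0.28), 1 of them (Cd3e) without overlap, and 0 were called or had an unadjusted limma p under 0.05. The other cell types were uneven: the summed macrophage markers (12 genes, 1 below 1 TPM in all libraries) were 132, 946 and 27.9 TPM in sufficient and 1369, 19.3 and 21.5 TPM in deficient libraries, so sufficient B1 and deficient C1 stood apart. Deficient C1 also had the highest sum of fibroblast and endothelial markers, 309 TPM against 20.7 to 62.5 TPM in the others. Of 7 plasma cell markers, which matter here because plasma cells have a large ER, 4 (Tnfrsf17, Mzb1, Ighg2c and Iglv1) were listed at 0 in all 6 libraries, and the summed level was at most 4.09 TPM. Summed immediate early genes, which respond to dissociation, were 2995 to 3531 TPM in sufficient and 4328 to 5840 TPM in deficient libraries, without overlap. The deficient dated library held no transcript of the Y-linked gene Eif2s3y (0, against 6.49 to 6.84 in the other 5). The Y-linked genes Kdm5d (0), Uty (0) and Ddx3y (0.014) were likewise absent or nearly so there and detected in the other 5. In the dated pair, the Tim-3 group and this difference in Y-linked transcripts cannot be told apart. In bulk samples, fewer cells of a type and less RNA per cell cannot be told apart.

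The promoters of several members carry known stress elements, and these are shown because the element found in heat shock members was not the one found in ER members. RefSeq promoter windows (GRCm38.p6, 250 bases before to 50 bases after a start site) were available for 29 of the 36 members. The heat shock element, bound by HSF1, was searched as GAANNTTCNNGAA on both strands, and the ER stress response element, bound by ATF6 with NF-Y, as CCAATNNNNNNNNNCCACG on both strands. The bases before the start site are printed 5' to 3' on the gene's own strand, with matches to either element in capitals.
Hspe1 (chr1:55087898-55088147, plus strand): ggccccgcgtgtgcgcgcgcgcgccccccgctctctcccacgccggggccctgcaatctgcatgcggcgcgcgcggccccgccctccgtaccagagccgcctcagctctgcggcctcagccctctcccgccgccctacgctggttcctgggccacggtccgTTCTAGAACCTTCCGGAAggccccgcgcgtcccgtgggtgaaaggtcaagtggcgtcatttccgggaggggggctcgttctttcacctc
Hspd1 (chr1:55087933-55088182, minus strand): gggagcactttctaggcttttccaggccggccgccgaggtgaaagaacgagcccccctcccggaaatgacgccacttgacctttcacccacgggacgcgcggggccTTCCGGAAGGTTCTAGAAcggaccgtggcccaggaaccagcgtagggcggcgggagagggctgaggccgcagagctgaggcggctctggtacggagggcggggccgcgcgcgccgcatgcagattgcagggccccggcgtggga
Hspa5 (chr2:34771840-34772089, plus strand): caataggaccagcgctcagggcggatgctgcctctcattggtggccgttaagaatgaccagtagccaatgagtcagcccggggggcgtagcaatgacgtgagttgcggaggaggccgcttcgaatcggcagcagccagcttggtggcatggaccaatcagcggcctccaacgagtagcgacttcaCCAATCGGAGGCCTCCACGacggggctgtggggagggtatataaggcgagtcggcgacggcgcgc
Hsp90b1 (chr10:86705445-86705694, minus strand): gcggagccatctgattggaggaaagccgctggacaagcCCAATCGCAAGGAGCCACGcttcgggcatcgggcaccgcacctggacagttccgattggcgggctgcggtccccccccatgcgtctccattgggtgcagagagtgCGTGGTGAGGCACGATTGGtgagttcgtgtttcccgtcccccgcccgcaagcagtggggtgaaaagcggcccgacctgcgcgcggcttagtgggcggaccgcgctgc
Creld2 (chr15:88819396-88819645, plus strand): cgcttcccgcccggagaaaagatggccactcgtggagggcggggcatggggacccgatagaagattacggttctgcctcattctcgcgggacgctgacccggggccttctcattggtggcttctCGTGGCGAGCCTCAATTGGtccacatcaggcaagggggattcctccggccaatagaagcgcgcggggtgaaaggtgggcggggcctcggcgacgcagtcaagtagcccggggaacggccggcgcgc
Hspe1 and Hspd1, which encode the mitochondrial chaperonin pair, lie head to head, and their windows share 285 bases. The same stretch of overlapping heat shock elements is therefore read in both, 89 to 72 bases before the start of Hspe1 and 144 to 127 bases before that of Hspd1. In Hsp90b1 the ER element occurs at 212 and at 107 bases before the start, in opposite directions, and in Hspa5 it begins 65 bases before the start.

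Among the 13 heat shock and mitochondrial chaperone genes with a window, 4 held the heat shock element (Chordc1, Hspd1, Hspe1 and Hsph1) and 0 the ER element. Among the 16 ER genes with a window, 7 held the ER element (Calr, Canx, Creld2, Dnajc3, Hsp90b1, Hspa5 and Pdia6) and 0 the heat shock element. Over all RefSeq genes the heat shock element was found in 0.662% and the ER element in 0.137%. The unfolded protein response element TGACGTGG was in 0 of the 29 members and 0.714% of all genes, and the C/EBP-ATF element TGATGCAA was in Herpud1 alone among members and 1.03% of all genes, both searched on both strands. The heat shock element overlaps only with copies of itself in these windows. A match is a description of the sequence and was not tested for binding. Only full matches to these patterns were counted, so a gene without a match may still hold an imperfect form. Hspa1a, Hspa1b, Dnajb1 and Bag3 were among the genes without a full match.

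The paired genes Hspa1a and Hspa1b, the stress-inducible HSP70 genes on chromosome 17, are near copies, and their promoters are shown with the differing bases in capitals.
Hspa1a (chr17:34972157-34972406, minus strand): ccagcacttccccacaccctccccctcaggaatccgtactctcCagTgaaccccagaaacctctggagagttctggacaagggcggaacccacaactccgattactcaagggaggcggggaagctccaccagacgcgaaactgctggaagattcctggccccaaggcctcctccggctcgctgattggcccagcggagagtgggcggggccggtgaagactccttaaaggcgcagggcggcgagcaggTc
Hspa1b (chr17:34959239-34959488, minus strand): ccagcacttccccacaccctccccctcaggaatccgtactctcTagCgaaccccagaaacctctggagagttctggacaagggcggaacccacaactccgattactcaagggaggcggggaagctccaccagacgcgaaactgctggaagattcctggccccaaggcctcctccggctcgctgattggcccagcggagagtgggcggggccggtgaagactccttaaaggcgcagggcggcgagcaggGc
Of these 250 bases, 247 were the same in both genes. In the transcripts, 55.8% of the 75-base windows of Hspa1b (75 bases is the read length) also occur in Hspa1a, so reads can be split between them and their separate values are uncertain. The share of windows that also occur in another annotated gene was 68.0% for Hspa8, 54.2% for Hspa1a, 53.1% for Hsp90aa1, 33.7% for Hspd1, 23.7% for Hspe1 and 16.6% for Dnaja1, and it was under 10% for the other members. For 23 members it was 0.

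The heat shock and mitochondrial chaperones stood at higher means in Tim-3 deficient Treg cells, 18 of 18, with the inducible HSP70 genes farthest apart, while the ER genes lay closer to 0 with 14 of 18 above it. No member passed the threshold over all genes. All 36 members had been kept by the filter on low values, which left 12155 tested genes. With limma and Benjamini-Hochberg adjustment, 0 of 36 members were called at an adjusted p under 0.05, against 25 of 12155 genes (0.206%). At an unadjusted p under 0.05 there were 6 members (Dnaja1, Dnajb1, Stip1, Bag3, Cct3 and Herpud1), 16.7% of 36, beside 11.7% of all tested genes. The groups did not overlap for 8 members, all higher in deficient cells (Dnajb1, Dnaja1, Bag3, Stip1, Chordc1, Cct2, Pdia3 and Pdia4), 22.2% of 36, where the background in that direction was 10.9%. None was lower without overlap, where the background was 6.73%.

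The median log2 fold change (deficient minus sufficient) was 0.40 over the 36 members, against 0.09 over all tested genes. It was 0.66 for the 18 heat shock and mitochondrial chaperones, ranging from 0.28 to 1.997, and 0.25 for the 18 ER genes, ranging from -0.29 to 0.62. Positive values were found for 60.1% of all tested genes. The heat shock median was 0.39 without deficient C1 and 1.07 without the deficient dated library. The ER median was 0.13 without the sufficient dated library and 0.13 without deficient C1, and centring each library on its median gave 0.12, with 11 of 18 positive.

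**Figure D1:**
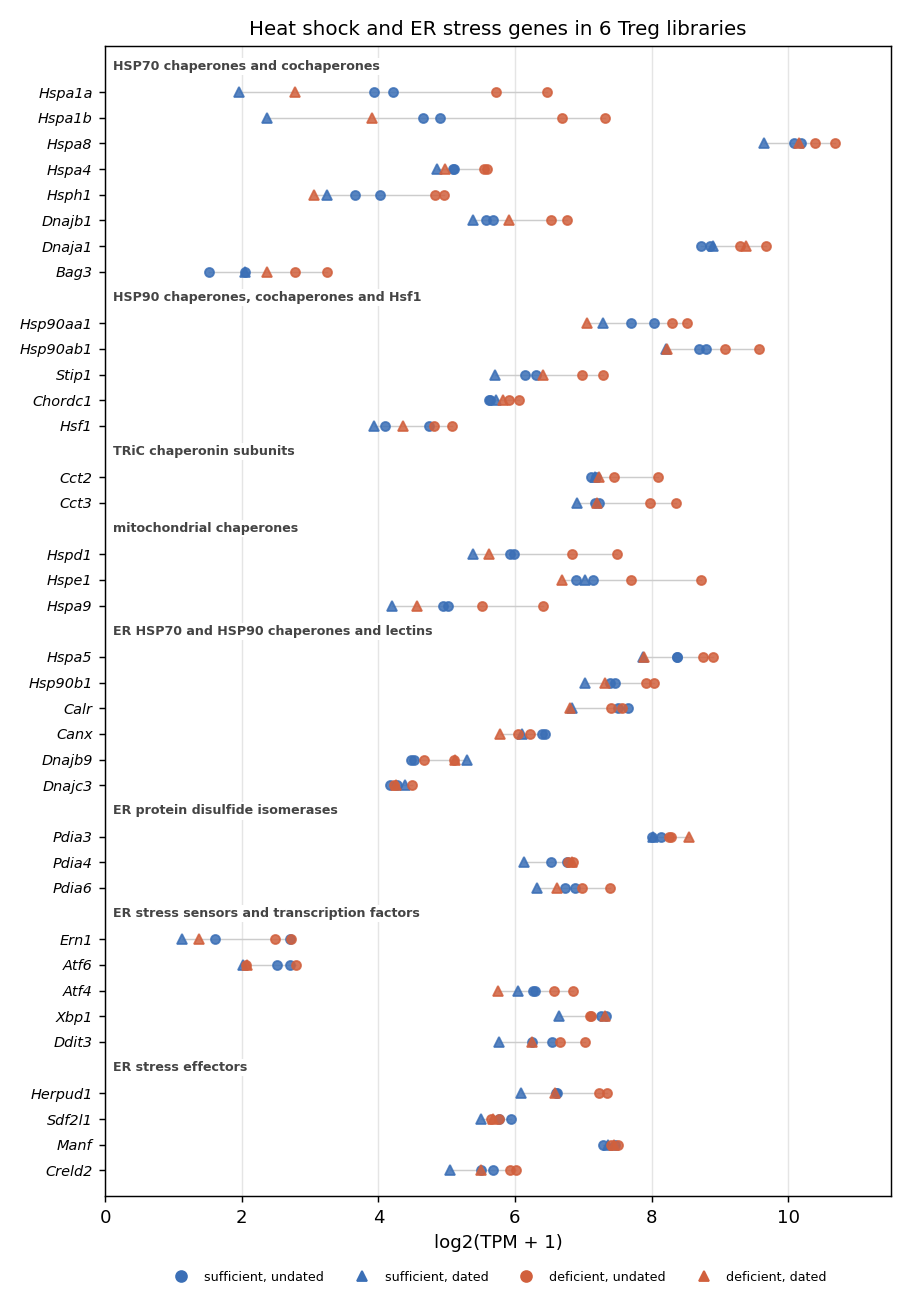
Values of the 36 members in log2(TPM + 1) on the x axis, 1 row per gene ordered by role, with blue for sufficient and orange for deficient libraries, triangles marking the dated ones and circles the others, and a grey line over the range. Undated deficient libraries lie to the right of undated sufficient libraries in all 18 heat shock and mitochondrial rows, and the dated triangles often lie to the left of both.

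Levels covered a wide range. Hspa8, the constitutive cytosolic HSP70, was the most abundant member by mean log2 level, with a mean of 1201 TPM and rank 142 among the 12155 tested genes. Dnaja1 followed with 579 TPM, then Hsp90ab1 with 458 TPM and the ER chaperones Hspa5 with 340 TPM and Pdia3 with 298 TPM. The lowest were Ern1 with 3.41 TPM, Atf6 with 4.28 TPM and Bag3 with 4.44 TPM. The 36 members together made up 5084, 4939 and 3923 TPM in sufficient and 7530, 7011 and 4846 TPM in deficient libraries, so the deficient dated library lay below both undated sufficient libraries.

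The HSP70 system held the members with the smallest p. Dnaja1 (chromosome 4, 40722150 to 40737149), an HSP40 partner that delivers clients to HSP70, stood at 8.72, 8.85 and 8.91 in sufficient and 9.30, 9.68 and 9.38 in deficient libraries. Each deficient library was above each sufficient one, with a log2 fold change of 0.62 ± 0.15 (SE) and a limma adjusted p of 0.158. Dnajb1 (chromosome 8, 83608193 to 83612653), the HSP40 that is induced by heat shock, stood at 5.69, 5.58 and 5.38 against 6.53, 6.76 and 5.92. Its groups did not overlap either, at 0.85 ± 0.24 (SE) and a limma adjusted p of 0.224. Bag3, a nucleotide exchange factor of HSP70 that is low in resting cells, stood at 1.52, 2.04 and 2.05 against 2.78, 3.24 and 2.37. Its log2 fold change of 0.93 ± 0.33 (SE) did not pass (limma adjusted p = 0.329), although deficient values lay above all sufficient ones.

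Hspa1a and Hspa1b, described here for their size and outside the rule for naming genes, had the widest spread. Hspa1a stood at 4.21, 3.93 and 1.96 in sufficient and 6.47, 5.72 and 2.77 in deficient libraries. Hspa1b stood at 4.90, 4.65 and 2.37 against 7.32, 6.69 and 3.90. In both genes the 2 dated libraries were the lowest of all 6, and within each date class the deficient libraries were above the sufficient ones. Summed over the pair, which avoids the split of reads between them, the level was 46.5, 38.4 and 7.06 TPM in sufficient and 247, 154 and 19.8 TPM in deficient libraries. The log2 fold change was 1.62 ± 0.96 (SE) for Hspa1a and 1.997 ± 0.95 (SE) for Hspa1b, with limma adjusted p values of 0.545 and 0.458. Their 95% intervals ran from -0.59 to 3.84 and from -0.19 to 4.19. These were the 2 largest fold changes of the set, with standard errors close to 1 because of the dated libraries.

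Hspa8 (chromosome 9, 40800984 to 40810087) stood at 10.18, 10.09 and 9.65 against 10.40, 10.69 and 10.17. Deficient dated lay just below sufficient A1, and the log2 fold change of 0.45 ± 0.20 (SE) did not pass (limma adjusted p = 0.433). Hspa4 and Hsph1, HSP110 type exchange factors, had log2 fold changes of 0.36 and 0.64 with overlapping groups. Hsph1 was lowest in the deficient dated library, at 3.06.

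In the HSP90 group, Stip1 was the member that separated the groups most. Stip1 (chromosome 19, 7020702 to 7039967), the adaptor that joins HSP70 and HSP90, stood at 6.30, 6.15 and 5.70 in sufficient and 7.29, 6.98 and 6.42 in deficient libraries. The groups did not overlap, and the log2 fold change was 0.84 ± 0.26 (SE, limma adjusted p = 0.258). Chordc1, an HSP90 cochaperone, stood at 5.64, 5.62 and 5.72 against 6.06, 5.91 and 5.83, a small difference of 0.28 ± 0.15 (SE) without overlap (limma adjusted p = 0.527). Hsp90ab1, the constitutive HSP90, stood at 8.80, 8.69 and 8.21 against 9.57, 9.08 and 8.22. The dated libraries of both groups were the lowest and nearly equal, and the log2 fold change of 0.39 ± 0.33 (SE) did not pass (limma adjusted p = 0.681). The inducible Hsp90aa1 had 0.28 and Hsf1, the gene of the heat shock factor itself, 0.49, both with overlap.

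TRiC, the cytosolic chaperonin that folds actin and tubulin, was represented by Cct2 and Cct3. Cct3 (chromosome 3, 88297116 to 88321767) stood at 7.18, 7.23 and 6.92 against 8.37, 7.98 and 7.20. The deficient dated library lay within the sufficient range, and the log2 fold change was 0.74 ± 0.28 (SE, limma adjusted p = 0.362). Cct2 stood at 7.19, 7.11 and 7.17 against 8.10, 7.45 and 7.23, without overlap but with the deficient dated library close to the sufficient ones (0.43 ± 0.22 (SE), limma adjusted p = 0.489).

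The mitochondrial chaperones were highest in deficient C1 and next highest in deficient D. Hspd1 (HSP60) stood at 5.93, 5.98 and 5.39 in sufficient and 7.50, 6.83 and 5.62 in deficient libraries. Hspe1 (HSP10), its partner across the shared promoter printed above, stood at 6.90, 7.15 and 7.02 against 8.73, 7.70 and 6.69. Hspa9, the mitochondrial HSP70, stood at 4.95, 5.03 and 4.20 against 6.41, 5.52 and 4.57. In all 3 genes deficient C1 was the highest library, and the deficient dated library lay below sufficient A1 and B1. Their log2 fold changes were 0.88 ± 0.43, 0.68 ± 0.44 and 0.78 ± 0.45 (SE), with limma adjusted p values of 0.466, 0.572 and 0.539. In the dated pair the difference was positive for Hspd1 (0.24) and Hspa9 (0.37) and negative for Hspe1 (-0.33), beside 1.21, 0.98 and 1.19 among undated libraries.

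ER chaperones differed less. Hspa5, which encodes BiP, the main HSP70 of the ER (chromosome 2, 34771970 to 34777547), stood at 8.38, 8.38 and 7.88 in sufficient and 8.90, 8.75 and 7.90 in deficient libraries. The undated libraries separated by group, whereas the dated pair was nearly equal, and the log2 fold change was 0.30 ± 0.28 (SE, limma adjusted p = 0.704). Hsp90b1 (GRP94), the ER form of HSP90, stood at 7.46, 7.40 and 7.02 against 8.04, 7.92 and 7.32 (0.47 ± 0.22 (SE), limma adjusted p = 0.458). Canx, the membrane-bound lectin chaperone calnexin, lay in the other direction, at 6.44, 6.39 and 6.10 against 6.22, 6.05 and 5.78. Its log2 fold change was -0.29 ± 0.18 (SE, limma adjusted p = 0.556), and the difference was negative in the dated pair (-0.32) as well as among the undated libraries (-0.28). Calr, its soluble relative calreticulin, had -0.07, and the BiP cochaperones Dnajb9 and Dnajc3 had 0.21 and 0.05. Calr, Canx and Dnajc3 hold the same ER element as Hspa5 and Hsp90b1 in their windows.

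The 3 protein disulfide isomerases, which form and rearrange disulfide bonds in the ER, had similar log2 fold changes of 0.31 (Pdia3), 0.34 (Pdia4) and 0.35 (Pdia6). Pdia3 stood at 8.15, 8.01 and 8.02 against 8.25, 8.29 and 8.55, and Pdia4 at 6.76, 6.53 and 6.14 against 6.85, 6.77 and 6.84. Neither gene overlapped between groups, although deficient D exceeded sufficient A1 by little in Pdia4, and neither passed (limma adjusted p of 0.447 and 0.511). Pdia3 and Pdia4 had larger differences in the dated pair (0.54 and 0.70) than among undated libraries (0.19 and 0.17), as did Hspa8 (0.52 and 0.41), and that contrast between the date classes was not tested.

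Among sensors and transcription factors, Ddit3, which encodes the stress factor CHOP, stood at 6.24, 6.55 and 5.76 in sufficient and 7.03, 6.66 and 6.25 in deficient libraries. Its log2 fold change was 0.46 ± 0.27 (SE, limma adjusted p = 0.536), and sufficient B1 lay above the deficient dated library. A second row with the symbol Ddit3, from a gene model inside the same locus on chromosome 10 (127290829 to 127293753), was listed at 0 in 5 libraries and at 5.76 in deficient D. With the 2 rows summed, deficient D became the highest library at 7.27 and the log2 fold change 0.66. Xbp1, the transcription factor spliced by IRE1, stood at 7.26, 7.34 and 6.65 against 7.10, 7.12 and 7.33. It was lower in deficient cells among undated libraries (-0.19) and higher in the dated pair (0.67), and overall had 0.10 ± 0.20 (SE, limma adjusted p = 0.882), with a 95% interval from -0.37 to 0.57. Its sign turned with quantile normalization and with median centring. Gene-level values do not show the splicing of Xbp1. Ern1, the gene of IRE1, was low, at 2.70, 1.60 and 1.12 against 2.71, 2.49 and 1.38, with a log2 fold change of 0.38 and overlap. Atf4 and Atf6 had 0.19 and -0.10.

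Of the ER stress effectors, Herpud1 (chromosome 8, 94386438 to 94395377), a component of ER-associated degradation, stood at 6.62, 6.60 and 6.09 against 7.34, 7.23 and 6.59. Deficient C1 and D were the highest, and the deficient dated library lay just below the undated sufficient ones. The log2 fold change was 0.62 ± 0.24 (SE, limma adjusted p = 0.381). Creld2, an ER chaperone for disulfide-rich proteins, stood at 5.67, 5.50 and 5.05 against 6.01, 5.92 and 5.50 (0.41 ± 0.23 (SE), limma adjusted p = 0.528). Manf, a secreted ER stress protein, was level across libraries, at 7.29, 7.47 and 7.36 against 7.40, 7.52 and 7.46, with a log2 fold change of 0.09 (negative after quantile normalization or median centring) and a 95% interval from -0.22 to 0.39. Sdf2l1, a BiP-associated protein, had -0.04 with an interval from -0.44 to 0.36.

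**Figure D2:**
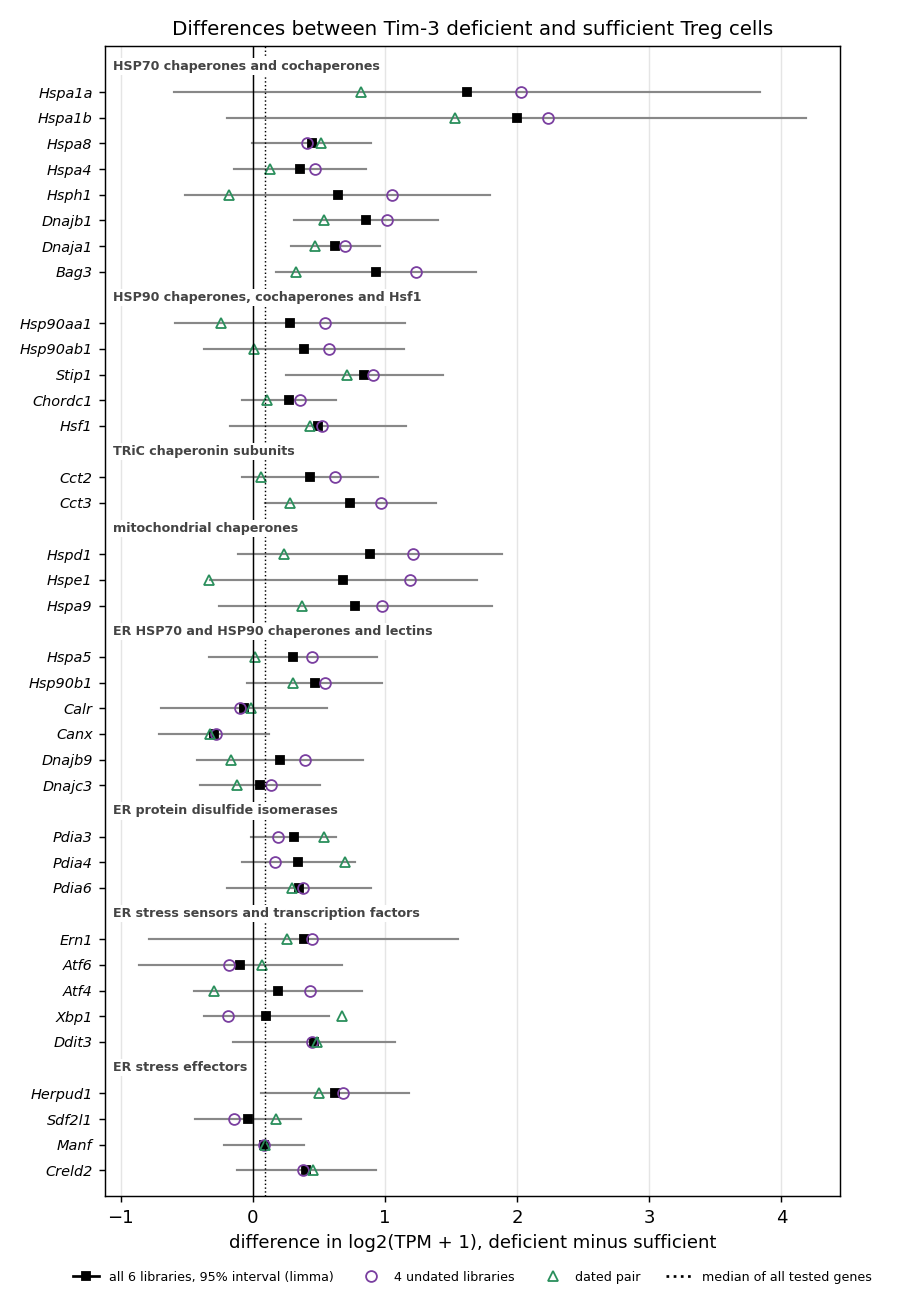
Difference in log2(TPM + 1), deficient minus sufficient, for each member (x axis), with squares and 95% limma intervals for all 6 libraries, open circles for the 4 undated libraries and open triangles for the dated pair; the dotted line marks the median of all tested genes at 0.09. Intervals of Hspa1a and Hspa1b are the widest, and circles lie to the right of triangles in 17 of the 18 heat shock and mitochondrial rows.

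The size of the difference moved with the date mark. Among undated libraries the median difference was 0.94 for the heat shock and mitochondrial chaperones and 0.28 for the ER genes. In the dated pair, where each group has 1 library and no test is possible, the medians were 0.30 and 0.22. The median of all tested genes was 0.09 and 0.08. Both undated deficient libraries exceeded both undated sufficient ones in 18 of 18 heat shock and mitochondrial genes and 10 of 18 ER genes, beside 31.3% of all tested genes. In the dated pair the deficient library was higher in 15 of 18 and 13 of 18, beside 57.6% of all tested genes. The difference was larger among undated libraries in 17 of 18 heat shock and mitochondrial genes and 9 of 18 ER genes, beside 50.1% of all tested genes. All members were measured in the same 6 libraries, so these counts are not counts of independent events. The dated libraries also differed in Y-linked transcripts, and in that pair this cannot be told apart from the Tim-3 group.

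**Figure D3:**
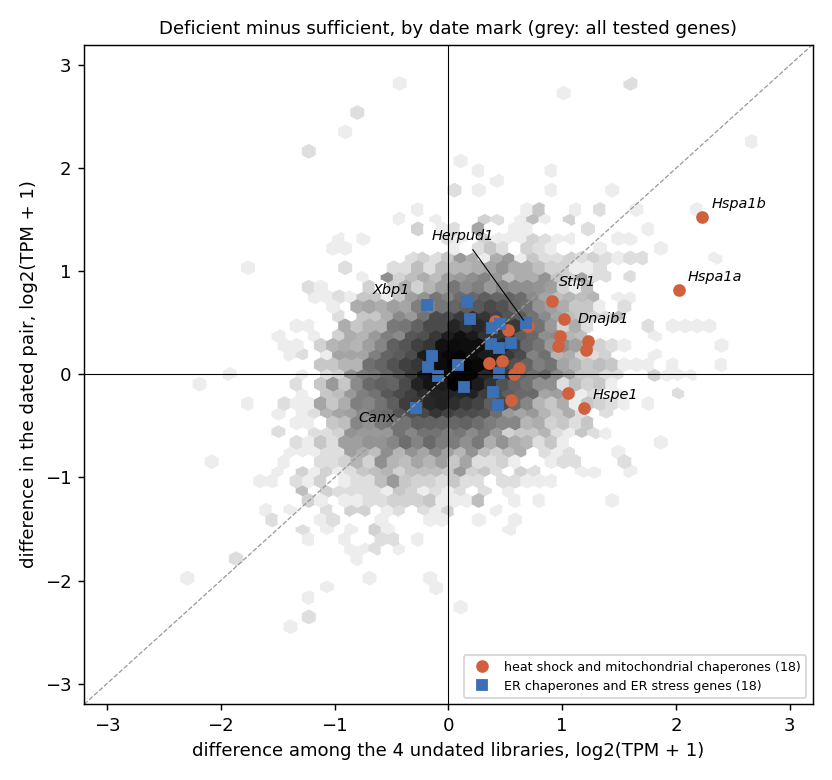
Difference between deficient and sufficient libraries in log2(TPM + 1) among the 4 undated libraries (x axis) and in the dated pair (y axis), with orange circles for heat shock and mitochondrial chaperones, blue squares for ER genes, and grey shading for the density of all tested genes on a log scale (51 tested genes lie outside the axes). Hspa1b (2.23 and 1.53) and Hspa1a (2.03 and 0.82) lie farthest to the right, and Hspe1 (1.19 and -0.33) lies below 0 in the dated pair.

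By library, each member was set against its mean over the 6 libraries. The median deviation of the heat shock and mitochondrial chaperones was -0.16, -0.25 and -0.56 in sufficient and 0.77, 0.50 and -0.25 in deficient libraries. That of the ER genes was -0.01, 0.00 and -0.47 against 0.24, 0.22 and -0.16. All tested genes had 0.08, -0.03 and -0.18 against 0.12, 0.11 and -0.09. The deficient dated library thus lay with the sufficient libraries for the heat shock genes, and the sufficient dated library was the lowest in both classes. Deficient C1 was highest for the mitochondrial chaperones (1.29) and deficient D for the HSP70 group (0.83). Deficient C1, the library with the highest macrophage marker sum and the highest Dcn, held the highest value for 23 of 36 members, beside 3433 of 12155 tested genes. Deficient D, with 19.3 TPM of macrophage markers, held it for 7, beside 2447 of 12155 tested genes, a similar share. Sufficient B1, with 946 TPM of macrophage markers, held it only for Xbp1 and Sdf2l1 among members, and its heat shock deviation was -0.25. Without sufficient B1 and deficient C1, the libraries with the most macrophage transcripts, the median log2 fold change of the 36 members was 0.27 and 34 of 36 were positive. The median of all tested genes in that setting was 0.055. The heat shock median was then 0.49, with 18 of 18 positive (the lowest at 0.011). By limma, 0 of 12155 genes were called (748 at an unadjusted p under 0.05, of which 1 was a member). The part of these other cells in the member values was otherwise not tested. Immediate early genes were highest in the deficient dated library (5840 TPM) and lowest in the sufficient dated library (2995 TPM). The heat shock genes had median deviations of -0.25 and -0.56 there. The 14 immediate early genes had a median log2 fold change of 0.70, with 12 positive. For 8 (57.1%) deficient values were higher without overlap, beside 10.9% of all tested genes. Btg2 had the smallest p (0.96 ± 0.16 (SE), limma adjusted p = 0.0727). The part of these genes in the chaperone values was not tested.

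**Figure D4:**
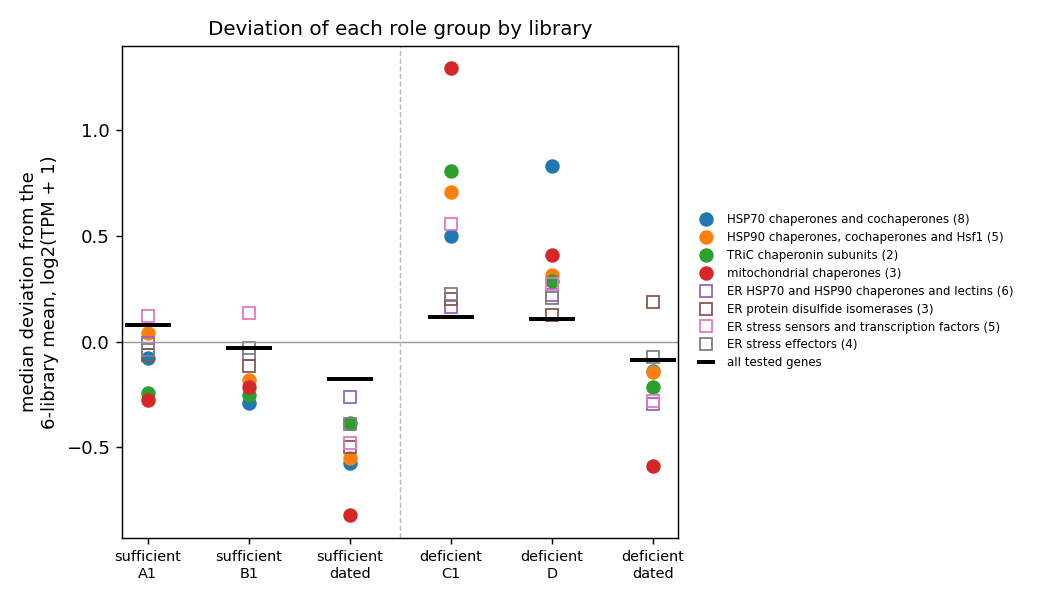
Median deviation of each role group from its mean over the 6 libraries, in log2(TPM + 1) (y axis), by library (x axis), with filled circles for the 4 heat shock and mitochondrial groups, open squares for the 4 ER groups, the number of genes in brackets, and black bars for all tested genes. Deficient C1 and D lie above 0 for all groups, the sufficient dated library below 0 for all groups, and the mitochondrial chaperones span from -0.82 to 1.29.

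With the date mark as a block in limma, a design chosen because the column names carry it and not because the labels give it, 5 of 36 members rose in deficient cells, against 1.97% of all tested genes. These were Hspa1b (1.997 ± 0.23 (SE), adjusted p = 0.0136), Stip1 (0.84 ± 0.14 (SE), adjusted p = 0.0353), Dnajb1 (0.85 ± 0.16 (SE), adjusted p = 0.0439), Hspa1a (1.62 ± 0.31 (SE), adjusted p = 0.0476) and Herpud1 (0.62 ± 0.12 (SE), adjusted p = 0.0484), with 0 lower. The first 4 belong to the cytosolic HSP70 and HSP90 system. All 5 had positive differences in both date classes. This fit favours genes whose differences are alike in both classes, so that is not separate support. The dated pair in this fit also differed in Y-linked transcripts. Among the 4 undated libraries alone, 4 members were called higher (Hspa1a, Hspa1b, Dnajb1 and Cct3) and 0 lower, against 1.77% of all tested genes. Without the deficient dated library, Dnajb1 and Cct3 were called, against 0.995% of all tested genes. Array weights, which give less weight to libraries that scatter more, called 6 members (Dnaja1, Dnajb1, Stip1, Cct3, Bag3 and Herpud1), all higher, against 7.81% of all tested genes. The weights were 3.50 for sufficient B1 and 2.55 for deficient D, and from 0.402 to 0.927 for the others. These calls thus rest mainly on 1 library per group. Dnajb1 was called in all 4 of these fits, which reuse the same libraries and are not separate support. It was not called in the main fit (limma adjusted p = 0.224). Nor was it called without sufficient B1 and deficient C1 (limma adjusted p = 0.816).

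Other genes of the same pathways were examined in 8 further lists with 126 tested genes. Of these, 0 were called by limma, beside 0.206% of all tested genes, and 23 (18.3%) had an unadjusted p under 0.05, beside 11.7%. The median log2 fold change was 0.22, and 95 of 126 were positive. The further TRiC and prefoldin subunits had a median of 0.37 with 10 of 12 positive, and Cct6a, another TRiC subunit, had the smallest p among them, at 6.67, 6.62 and 6.73 against 8.00, 7.45 and 7.04 (0.82 ± 0.24 (SE), limma adjusted p = 0.236). The further HSP70, HSP40 and small heat shock genes had a median of 0.35 with 18 of 23 positive. Dnajb6, an HSP40 gene, had the smallest p of this list at 0.43, and the largest value was 1.61 for Bag2, an HSP70 cochaperone (limma adjusted p = 0.465, named after its value was seen). Bag2 was low, at 1.32, 2.39 and 2.39 TPM in sufficient and 27.8, 9.72 and 1.45 TPM in deficient libraries. Its deficient dated value lay within the sufficient range. The HSP90 cochaperones had a median of 0.10, with the smallest p for Fkbp4 at 0.93, and the mitochondrial chaperones and proteases 0.10, with the smallest p for Trap1 at 0.58.

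On the ER side, the further folding enzymes had a median of 0.07 with 14 of 21 positive, and the genes of ER-associated degradation 0.04 with 10 of 17 positive. Ero1l, the oxidase that supplies disulfide bonds to the isomerases, had 0.73 and Ube2g2, a ubiquitin-conjugating enzyme of ER-associated degradation, 0.65, neither past the threshold. Among the further sensors, proteases and kinases (median 0.26, 10 of 13 positive), Ppp1r15a had the smallest p. This gene encodes GADD34, which directs the removal of phosphate from eIF2 alpha, and it stood at 8.37, 8.25 and 7.65 in sufficient and 8.87, 9.29 and 8.97 in deficient libraries. Its groups did not overlap, and the log2 fold change was 0.95 ± 0.22 (SE, limma adjusted p = 0.152). The targets of ATF4 and CHOP had a median of 0.61 with 15 of 18 positive, with Mthfd2, a mitochondrial folate enzyme, at 0.69 (limma adjusted p = 0.288).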

How the data were processed

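RNA from Treg cells sorted into lysis buffer was made into Nextera XT libraries and sequenced as 75 bp pairs on a NextSeq, per the labels' protocols. The submitters' processing notes list STAR, RSEM and limma, with no versions, and the builds mm10 and GRCm38. Deposited levels are log2(TPM + 1): raised back, each library summed to about 1000000 TPM. TPM keeps no counts, so depth, counting intervals and detection limits are unknown. All 55450 identifiers matched GENCODE mouse release 21, which supplied coordinates and symbols (27 symbols were replaced). Genes with a log2 value of at least 1 in at least 3 of 6 libraries were tested with limma 3.58.1 in R 4.3.3 (lmFit, eBayes with a mean-variance trend, no covariate), with two-sided p-values adjusted by Benjamini-Hochberg over all 12155 tested genes and a threshold of 0.05. Fold changes are on the log2(TPM + 1) scale and understate changes of low genes. Members, lists and tests were chosen with earlier results of these data known. Named were, per role group, the 2 members of smallest p and the most abundant, and per other list the gene of smallest p; other genes were named after their values were seen. Scripts were tested on simulated data. Figures used Python 3.11.15 with matplotlib 3.10.9. Alternatives covered filters, normalization, pseudocount, variance model, weights, threshold, date mark and leaving out libraries.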

Additional observations from a re-analysis of the deposited data

How the results depend on the processing

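No paired analysis was possible because the columns carry no replicate numbers. The number of all genes called, 25 (16 higher, 9 lower), was 1 with no filter beyond a value above 0, 38 (16 higher, 22 lower) with quantile normalization, 4 with no trend, 949 with array weights, 90 at an adjusted p under 0.1, 240 with the date mark as a block, 215 without both dated libraries and, chosen after seeing the data, 0 without sufficient B1 and deficient C1 (748 at an unadjusted limma p under 0.05). Centring on library medians gave 30 (11 higher, 19 lower) and moved the median of all genes from 0.09 to -0.04. Leave-one-out counts ranged from 0 to 121: 0 without sufficient B1 (978 at an unadjusted limma p under 0.05), 0 without deficient D (944), 2 without sufficient A1, 11 without deficient C1, and for the dated libraries 24 (sufficient left out) and 121 (deficient left out). The number of members called, 0, was 6 with array weights (7.81% of all genes), 5 with the date block and 4 without both dated libraries. Leaving out 1 library gave from 0 to 2, the 2 being Cct3 and Dnajb1 without the deficient dated library (0.995% of all genes). Array weights ran from 0.402 (deficient dated) to 3.50 (sufficient B1). The members' median, 0.40, stayed between 0.26 and 0.64. Xbp1 turned to -0.038 with quantile normalization, -0.034 with median centring, -0.12 with array weights and -0.19 without both dated libraries, and ranged from -0.11 (sufficient dated left out) to 0.23 (sufficient B1 left out) when 1 library was left out. Manf turned to -0.0062 with quantile normalization and -0.049 with centring. The cause was not tested. The other 20 members named by the rule did not change sign in these settings. Outside the rule, Dnajc3 turned negative with quantile normalization, with centring and without sufficient B1 or deficient D, and Atf4 without deficient C1. Atf6, Calr and Sdf2l1 turned positive in at least 1 setting, among them array weights for Atf6 and leaving out sufficient A1 for Calr and sufficient B1 for Sdf2l1. The heat shock and mitochondrial genes were positive in each setting of this list, 18 of 18, or 17 of 17 where a mean log2 of at least 3 was required. The lowest value was 1.5e-04 without deficient C1 and 0.011 without sufficient B1 and deficient C1. The sign of the lowest gene says little in those settings.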

Other observations

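Some genes of the same pathways lay against the general direction or far from it; they were chosen after their values were seen, and 0 of them passed the limma threshold. Erp29 and Erp44, thioredoxin-like proteins of the early secretory pathway, had deficient values that all lay below the sufficient ones. Erp29 stood at 6.63, 6.71 and 6.47 in sufficient A1, B1 and dated and 6.12, 6.08 and 6.00 in deficient C1, D and dated, a log2 fold change of -0.53 ± 0.15 (SE, limma adjusted p = 0.222). Erp44 stood at 6.52, 6.54 and 6.80 against 5.99, 6.33 and 6.13, with -0.47 ± 0.17 (SE, limma adjusted p = 0.329). Txndc5, a disulfide isomerase, stood in the opposite direction, at 4.53, 4.36 and 4.18 against 5.60, 5.02 and 4.88 (0.81 ± 0.24 (SE), limma adjusted p = 0.246). Of the 21 ER folding enzymes, 3 were higher without overlap (14.3%, beside 10.9% of all tested genes) and 3 lower (14.3%, beside 6.73%).

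Asns, the asparagine synthetase gene that ATF4 induces, had the largest fold change of the ATF4 and CHOP list. It stood at 2.84, 3.46 and 2.61 in sufficient and 6.89, 5.04 and 2.95 in deficient libraries, a log2 fold change of 1.99 ± 0.85 (SE, limma adjusted p = 0.420). The high values were in deficient C1 and D, and the deficient dated library lay within the sufficient range. Atf3, a stress factor that also belongs to the immediate early genes, stood at 3.92, 5.48 and 3.77 against 5.64, 5.75 and 5.40, with the deficient dated library not low. Bag1, an HSP70 exchange factor, stood at 7.51, 7.50 and 7.41 against 6.67, 6.25 and 7.47, lower in the 2 undated deficient libraries alone.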
